A study of Homo sapiens with 52 samples.

Results

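MDA-MB-231 cells carrying the hairpin shNRP1#5 were compared with MDA-MB-231 cells carrying a non-targeting hairpin, shNT. The comparison used every library of both groups in the human gene count table, 3 of shNRP1#5 and 3 of shNT, which are 6 of the 52 RNA-seq samples in the series. MDA-MB-231 is a human claudin-low, triple-negative breast cancer line. The series measured bulk poly(A) RNA after knockdown of the receptor neuropilin-1 (NRP1) in this line and in 2 others of the same subtype, SUM159PT and HS578T. Each line received 2 different siRNAs or 2 different shRNAs, with a non-targeting (NT) control for each route.

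Both groups described here were infected with lentivirus made from the pLKO.1 vector, selected for 3 days in 1 µg/mL puromycin, reseeded once nearly confluent and harvested 48 hrs later. They thus share the vector, the infection procedure and the drug. They differ by the hairpin and by the separate virus preparation and infection of each, which cannot be told apart. The shNRP1#5 hairpin is directed at transmembrane and soluble NRP1 alike. Each hairpin stands for 1 infected and selected population, and the replicates are consecutive passages of it. The p-values thus do not measure the spread between independent infections. For this comparison the spread was estimated from all MDA-MB-231 samples together, siRNA transfections included, and not from the passages of both groups alone. The siRNA experiments used below for comparison were 20 nM transfections harvested after 72 hrs, and siNRP1#5 has the same sequence as shNRP1#5.

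NRP1 is a co-receptor at the cell surface. It binds class 3 semaphorins together with plexins, which carry the signal into the cell, and it binds VEGF family growth factors together with their receptor kinases. It also associates with PDGF, EGF and TGF-β receptors, integrins and the HGF receptor MET. Soluble forms lack the membrane anchor and can bind the same ligands outside the cell. A hairpin is processed to a short guide strand, which leads Argonaute proteins to fully matched transcripts for cleavage and, through its seed, to partly matched 3′ UTRs.

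The target site of the hairpin lies in the coding sequence of NRP1 and was read from the reference genome (GRCh38, minus strand, chr10:33263779-33263797, exon 4 of the transcript NRP1-206). It is shown because it is shared by shNRP1#5 and siNRP1#5, and the capitals mark the 7 bases that pair with bases 2 to 8 of the guide strand, its seed.

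NRP1 target site: cagccttgaatGCACTTAt

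The gene spans chr10:33177492-33336262 on the minus strand. Of its 14 annotated transcripts in the reference, 9 hold these 7 bases at this position, including NRP1-206, the canonical transmembrane form, and NRP1-204, a soluble form. In NRP1-207 the site falls in the annotated 5′ UTR.

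Total expected counts of the 6 samples ranged from 45312047 to 69517541, within the 25310443 to 72003442 seen over the series. The share of counts on mitochondrial genes was 2.90, 2.37 and 2.53% in shNRP1#5 and 4.03, 3.37 and 2.91% in shNT. The shares were lower with shNRP1#5 and did not overlap, although the highest shNRP1#5 passage and the lowest shNT passage nearly met, and their part in the results was not tested. Cell line identity was checked on genes chosen in the siNT samples. The 72 genes of SUM159PT had a median level of at most 0.0414% of that in SUM159PT, and the 101 genes of HS578T at most 0.017%. Of the markers that claudin-low cells express, VIM, CD44, ITGA6, ZEB1 and SNAI1 were all present and none passed the test. ESR1 and PGR, which encode the oestrogen and progesterone receptors, were at most 0.22 and 0.12 TPM. Of the markers that are low in claudin-low cells, CDH1 was at most 0.69 TPM. CLDN4 was at 62.6 to 174 TPM, CLDN7 at 10.4 to 46.1 TPM and CLDN3 at 4.35 to 13.4 TPM. The series holds no line of another breast cancer subtype, so whether these claudin levels are low could not be judged.

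The targeted transcript was lower with the hairpin. NRP1 stood at 83.8, 101 and 100 CPM (library-size scaled counts, normalised by TMM) in the 3 shNRP1#5 passages and at 209, 193 and 188 CPM in the 3 shNT passages. The groups did not overlap. The log2 fold change was -1.05 (standard error 0.146, adjusted p = 9.78e-05, by the quasi-likelihood test of edgeR, adjusted after Benjamini and Hochberg over all genes tested, as for every adjusted p below). In these bulk libraries, less RNA in each cell and fewer cells that express a gene cannot be told apart. On a scale common to all 52 samples, NRP1 was at 78.7, 91.6 and 90.8 CPM with shNRP1#5, which overlapped the 64.5, 72.2 and 86.2 CPM of the siNT control of the same line. The siRNA with the same sequence left 3.25, 2.27 and 1.89 CPM. The knockdown by shNRP1#5 was thus the smaller one, and the difference between the 2 log2 fold changes was 3.83 (standard error 0.222, adjusted p = 8.14e-09, edgeR).

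The shares of the 3 most abundant NRP1 transcripts overlapped between the groups. NRP1-206 made up 51.2, 45.7 and 42.3% of NRP1 TPM with shNRP1#5 and 45.2, 42.7 and 46.7% with shNT, a difference of 1.54 percentage points (exact two-sided permutation test, p = 0.7). NRP1-204 made up 21.2% ± 4.13 (SD, n = 3) against 22.3% ± 3.83, and the exact permutation test gave p = 0.7. NRP1-209 was at 17.8% ± 6.62 against 21.5% ± 2.18 (exact permutation test, p = 0.5). With 3 samples against 3, the smallest p this test can give is 0.1. In TPM, NRP1-206, NRP1-204 and NRP1-209 stood at 0.455, 0.419 and 0.382 times their mean shNT level, so the transmembrane and the soluble form were lower together. NRP1-209 does not hold the 7 bases of the target site, and the assignment of reads among overlapping transcripts of 1 gene is an estimate.

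Across all genes, 3899 of 18800 passed an adjusted p of 0.05 (20.7%), 1653 higher with shNRP1#5 (8.79%) and 2246 lower (11.9%). The CPM values of the groups did not overlap in 49% of the genes tested. The median log2 fold change over all genes was 0.02, and the median size of the change among called genes was 0.75. More than 2-fold changes were called for 464 genes that rose (2.47%) and 816 that fell (4.34%). The count rested on single passages in part. It was 2190 without shNRP1#5 replicate 2, 2196 without replicate 3, 2415 without shNT replicate 2 and 2100 without shNT replicate 3, but 3059 and 3189 without the first passage of either group.

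**Figure D1:**
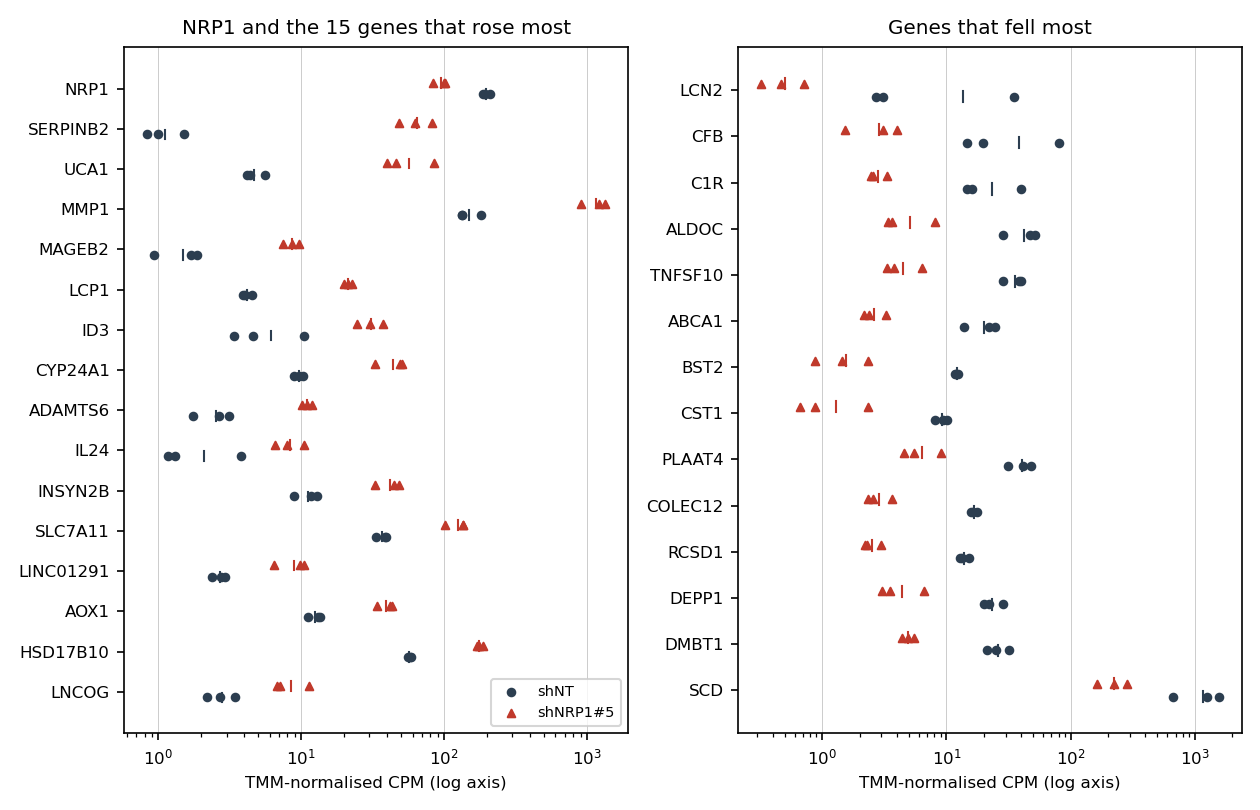
TMM-normalised CPM on a log axis of NRP1 and the 15 genes that rose most (left) and of 14 of the 15 that fell most (right) among called genes with a mean of at least 5 CPM and no overlap between groups. Triangles are the 3 shNRP1#5 samples, circles the 3 shNT samples and vertical ticks the group means. SERPINB2 moved from about 1 to 48.4 to 82.8 CPM, and 1 shNT sample of LCN2, at 34.9 CPM, stood far above the other shNT samples.

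Among called genes with a mean of at least 5 CPM and no overlap between groups, the largest rises were of SERPINB2, UCA1 and MMP1. SERPINB2, an inhibitor of the plasminogen activator urokinase, was at 82.8, 48.4 and 62.1 CPM with shNRP1#5 and at 0.987, 1.50 and 0.834 CPM with shNT. It rose by 5.87 on the log2 scale (standard error 0.348, adjusted p = 3.75e-08, edgeR), with the lowest adjusted p of all genes. UCA1, a long noncoding RNA known from urothelial cancer, stood at 84.8, 45.6 and 39.7 CPM against 4.37, 5.55 and 4.19 CPM. In this gene too the lowest shNRP1#5 passage was far above the highest shNT passage, and the log2 fold change was 3.59 (standard error 0.457, adjusted p = 0.000109, edgeR).

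MMP1, the interstitial collagenase, was the most abundant of the strong risers. It was at 1339, 902 and 1220 CPM with shNRP1#5 and at 133, 181 and 134 CPM with shNT, a log2 fold change of 2.95 (standard error 0.207, adjusted p = 1.16e-07, edgeR). Every shNRP1#5 passage lay well above every shNT passage. HSD17B10, a mitochondrial dehydrogenase, was the tightest of the group, with 175, 186 and 168 CPM against 58.1, 57.6 and 55.5 CPM and a log2 fold change of 1.63 (standard error 0.154). SLC7A11, the cystine importer that feeds glutathione synthesis, rose from 33.1, 38.9 and 38.5 CPM to 102, 135 and 135 CPM (log2 fold change 1.75, standard error 0.233).

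The other risers of this set were MAGEB2, a cancer-testis antigen (log2 fold change 2.52), LCP1, an actin-bundling protein (2.35), ID3, an inhibitor of basic helix-loop-helix factors (2.32), CYP24A1, which degrades active vitamin D (2.20), the metalloproteinase ADAMTS6 (2.14), the cytokine IL24 (2.00), INSYN2B (1.91), the aldehyde oxidase AOX1 (1.65) and the noncoding RNAs LINC01291 (1.73) and LNCOG (1.61). IL24 no longer passed when the first passage of both groups was left out (1.55, adjusted p = 0.0638, edgeR), a choice made after seeing the data.

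The largest falls by the same rule included genes of innate defence and of lipid metabolism. BST2 (tetherin), an interferon-induced protein that holds budding virus at the membrane, was at 2.33, 1.44 and 0.882 CPM with shNRP1#5 and at 12.5, 11.8 and 12.0 CPM with shNT. It fell by 2.94 on the log2 scale (standard error 0.235, adjusted p = 3.29e-07, edgeR). The shNT passages were tightly grouped and all well above the shNRP1#5 passages. TNFSF10 (TRAIL), a death ligand, was at 6.38, 3.31 and 3.78 CPM against 40.0, 28.5 and 38.5 CPM (log2 fold change -2.98, standard error 0.394, adjusted p = 0.000124, edgeR). PLAAT4, a retinoid- and interferon-responsive phospholipase, fell by 2.65 and DMBT1, a scavenger receptor, by 2.40.

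The abundant transcript of SCD, the stearoyl-CoA desaturase that makes monounsaturated fatty acids, was at 286, 165 and 225 CPM with shNRP1#5 and at 665, 1568 and 1263 CPM with shNT. The shNT passages were widely spread but did not reach down to the shNRP1#5 values, and SCD fell by 2.37 (standard error 0.295, adjusted p = 6.85e-05, edgeR). ABCA1, which exports cholesterol from cells, fell by 2.97, from 24.8, 13.9 and 21.9 CPM to 2.17, 3.25 and 2.37 CPM. ALDOC, a glycolytic aldolase, fell by 3.06, DEPP1 by 2.41, the scavenger collectin COLEC12 by 2.54 and RCSD1, a regulator of actin capping, by 2.46. The cystatin CST1 fell by 2.80, and because cystatins of this family are nearly identical in sequence, its reads could be shared with them.

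The complement genes and LCN2 (lipocalin-2) depended on 1 library in size. LCN2 was at 0.713, 0.467 and 0.322 CPM with shNRP1#5 and at 34.9, 3.08 and 2.71 CPM with shNT. All shNT values were higher, but shNT replicate 1 was far above the others. Its log2 fold change of -4.72 (adjusted p = 0.0153, edgeR) became -2.49 without that passage and no longer passed (adjusted p = 0.0858, edgeR), nor did it pass without shNRP1#5 replicate 2 (adjusted p = 0.0587) or replicate 3 (adjusted p = 0.0688). CFB, the complement protease factor B, was at 4.02, 3.08 and 1.53 CPM against 80.7, 14.5 and 19.7 CPM, with shNT replicate 1 again the highest. CFB fell by 3.73, or by 2.57 without shNT replicate 1, and passed in both fits. C1R, a protease of the classical pathway, fell by 3.06, with a log2 fold change of -2.45 without shNT replicate 1, and passed in both fits.

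The 31 gene lists below are read against the background of 8.79% of genes higher and 11.9% lower. A count of called members is a description and not a test of the list.

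**Figure D2:**
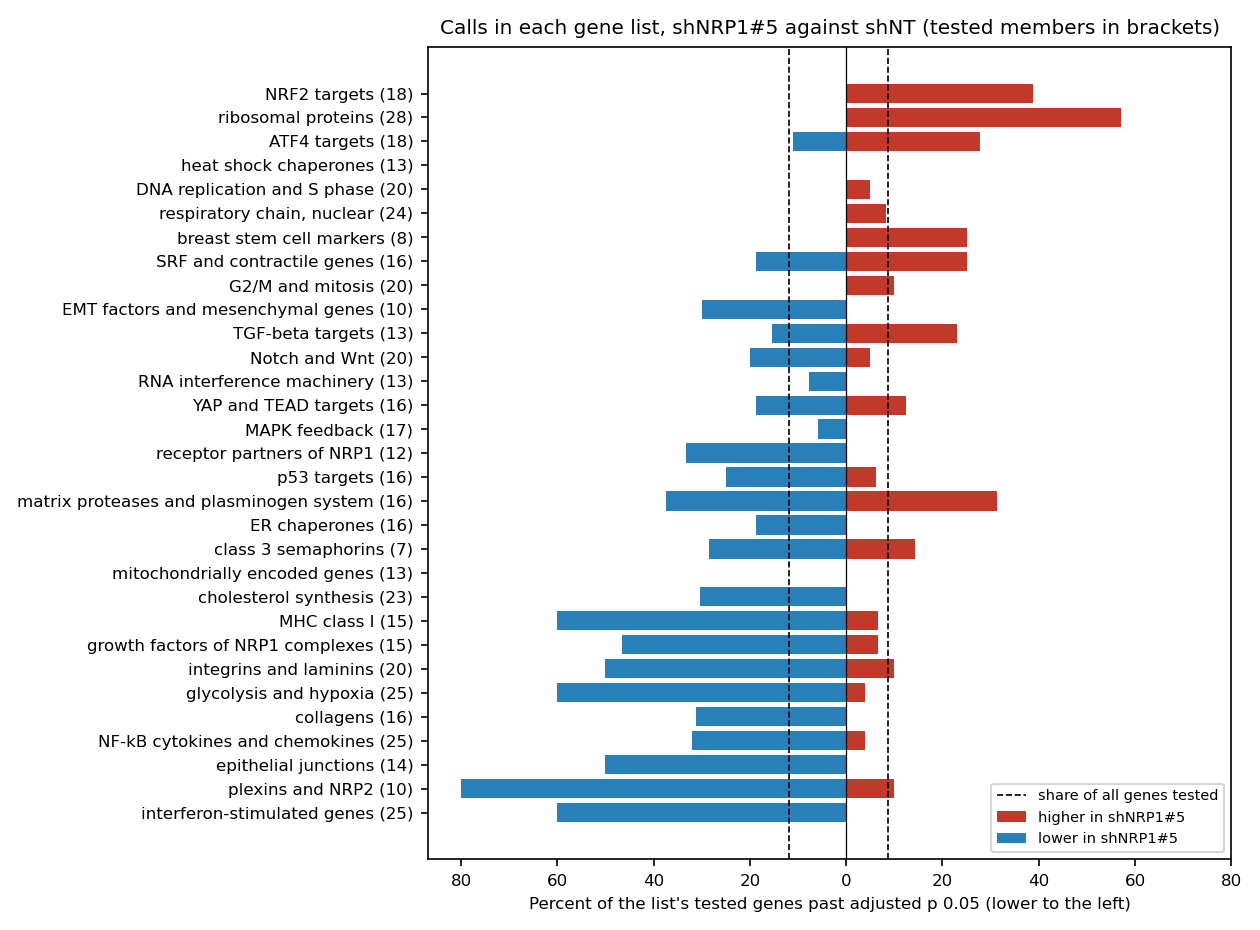
Percent of the tested members of each gene list that passed an adjusted p of 0.05, higher to the right and lower to the left, with the number of tested members in brackets. Dashed lines mark the shares over all genes tested, 8.79% higher and 11.9% lower. Plexins with NRP2 reach farthest to the left, then interferon-stimulated genes, MHC class I and the glycolysis and hypoxia list, and ribosomal proteins farthest to the right.

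NRP2 and most of the plexins tested fell with shNRP1#5. NRP2, the paralogue of NRP1, was at 31.8, 24.6 and 28.1 CPM with shNRP1#5 and at 58.2, 95.3 and 89.4 CPM with shNT, and fell by 1.52 (standard error 0.22, adjusted p = 0.000142, edgeR). The groups did not overlap. In the list of NRP2 and 9 plexins, 8 of 10 tested fell and 1 rose, with a median log2 fold change of -0.74. PLXNB1, a receptor of class 4 semaphorins, fell by 1.35, from 19.2, 15.6 and 15.7 CPM to 7.32, 6.41 and 6.04 CPM. PLXNB3 fell by 1.17 and PLXND1 by 0.72. PLXNA1, a signalling partner of NRP1, fell by 0.80 (adjusted p = 0.0408, edgeR) but did not pass when any 1 of the 6 passages was left out. PLXNA2 rose by 0.70 but did not pass without shNRP1#5 replicate 2, shNT replicate 1 or shNT replicate 3, and PLXNA4 did not pass (-0.40). The number of these genes that fell was 4 without shNRP1#5 replicate 3, 5 without shNRP1#5 replicate 2 or shNT replicate 2, and 6 without any other single passage.

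Among the class 3 semaphorins, the secreted ligands of the neuropilin and plexin complex, 1 of 7 rose and 2 fell. SEMA3B was at 18.3, 13.9 and 13.9 CPM against 46.8, 59.0 and 49.4 CPM with shNT and fell by 1.75 (standard error 0.233, adjusted p = 7.49e-05, edgeR). SEMA3G fell by 1.36 and SEMA3E, which can signal through PLXND1 without a neuropilin, rose by 1.05. SEMA3A, the founding member, had a log2 fold change of -0.29 and SEMA3C one of -0.09, and neither passed. The median over the list was -0.29, against 0.02 for all genes, and -0.01 without shNT replicate 1.

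**Figure D3:**
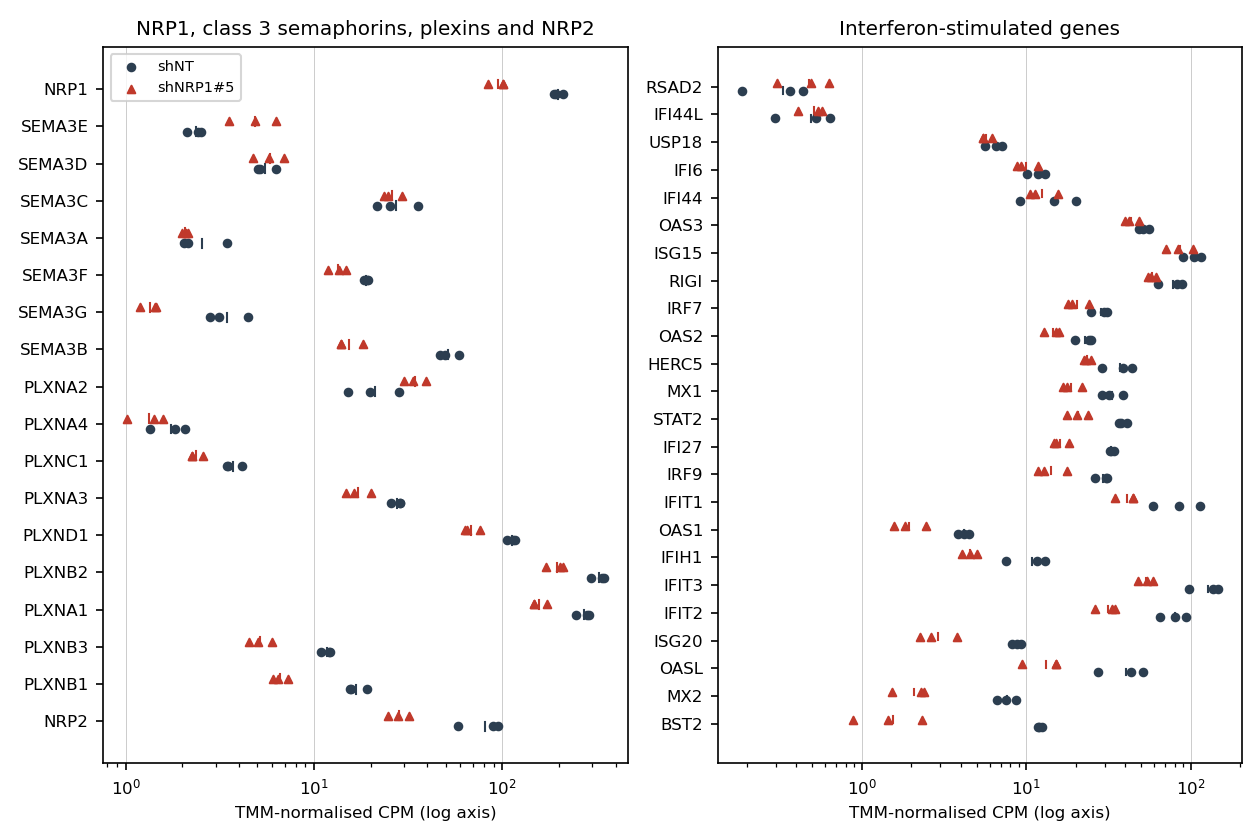
TMM-normalised CPM on a log axis of NRP1, the class 3 semaphorins, plexins and NRP2 (left) and of 24 of the 25 tested interferon-stimulated genes (right). Triangles are the 3 shNRP1#5 samples, circles the 3 shNT samples and vertical ticks the group means. NRP2, PLXNB1, SEMA3B and BST2 show wide gaps between the groups, with shNRP1#5 lower, and SEMA3E and PLXNA2 lie the other way round.

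Of 15 growth factors that use NRP1 complexes, 7 fell and 1 rose (median -0.51). AREG, an EGF receptor ligand, was at 7.40, 5.45 and 4.87 CPM against 17.9, 17.6 and 11.9 CPM and fell by 1.41 (standard error 0.252, adjusted p = 0.000886, edgeR). PDGFB fell by 1.18, PGF by 1.14 and TGFB1 by 0.74, while HBEGF, another EGF receptor ligand, rose by 0.68. VEGFA, at 78.3, 54.9 and 62.7 CPM against 134, 98.6 and 103 CPM, did not overlap between the groups but did not pass the test (-0.78, adjusted p = 0.107, edgeR). The list had 4 lower members without shNRP1#5 replicate 2.

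Of the receptor kinases and adaptors that associate with NRP1, 4 of 12 tested fell and none rose (median -0.13). ERBB3 fell by 1.62, from 5.06, 5.05 and 5.37 CPM to 1.93, 1.27 and 1.80 CPM, and ERBB2 by 0.60. TGFBR2 and TGFBR1 fell by 0.65 and 0.54, but TGFBR2 did not pass in 3 and TGFBR1 in 5 of the 6 fits that left out 1 passage. The list had 2 lower members without shNRP1#5 replicate 1 or replicate 2. EGFR (-0.16), MET (-0.09) and KDR, the main VEGF receptor of endothelium (0.02), did not pass.

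Of 14 junction genes of epithelia tested, 7 fell and none rose, with a median log2 fold change of -0.67. JUP (plakoglobin), which links cadherins to the cytoskeleton, was at 22.1, 14.1 and 13.1 CPM against 61.6, 82.0 and 86.7 CPM and fell by 2.22 (standard error 0.227, adjusted p = 7.38e-06, edgeR). CLDN4 was at 103, 69.4 and 79.3 CPM against 145, 187 and 172 CPM and fell by 1.00. CLDN3 fell by 0.92 but did not pass in 4 of the 6 fits that left out 1 passage, CLDN1 did not pass (-0.62), and CLDN7 fell by 1.24 but did not pass without shNT replicate 3 (adjusted p = 0.0749, edgeR), shNRP1#5 replicate 2 or shNRP1#5 replicate 3. CDH1 (E-cadherin, -1.89) and TJP3 (-3.63) were called as well, though neither reached more than 1.24 CPM in any of the 6 samples. EPCAM (-0.05), DSP (-0.33) and TJP1 (-0.13) did not pass.

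Of 10 tested mesenchymal genes, 3 fell and none rose (median 0.06), and VIM did not pass (0.16). FN1 (fibronectin) fell by 1.58, CDH11, a mesenchymal cadherin, by 1.55 and the calcium-binding S100A4 by 1.03, and FN1 did not pass when the first passage of both groups was left out (adjusted p = 0.0657, edgeR). Of 8 genes used as breast stem cell markers, BMI1 rose by 0.88, and CD24, a marker by its low level, rose by 0.87. BMI1 did not pass without shNT replicate 2 or shNRP1#5 replicate 3. The list median was 0.11.

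Among integrins and laminins, the receptors and ligands of basement membranes, 10 of 20 tested fell and 2 rose (median -0.52). ITGB4, the integrin chain of hemidesmosomes, was at 55.2, 44.7 and 42.0 CPM against 224, 231 and 220 CPM. Its groups were narrow and far apart, and it fell by 2.25 (standard error 0.218, adjusted p = 4.35e-06, edgeR). LAMA3 fell by 1.18, whereas LAMB3, which assembles with it into a basement membrane laminin, rose by 0.65. LAMA5 fell by 1.14. The number that fell was 5 without shNRP1#5 replicate 2 and 6 without shNRP1#5 replicate 3, shNT replicate 2 or shNT replicate 3. Of 16 collagens, 5 fell and none rose (median -0.53), with COL5A1 at 97.3, 99.8 and 75.3 CPM against 234, 184 and 230 CPM (log2 fold change -1.25). That count was 3 without shNRP1#5 replicate 3 or shNT replicate 1.

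The matrix proteases and the plasminogen system moved in both directions, with 5 of 16 tested higher and 6 lower (median -0.22). Besides SERPINB2 and MMP1, the stromelysin MMP3 rose by 3.72, from 0.987, 0.408 and 0.425 CPM to 11.8, 5.75 and 6.24 CPM (standard error 0.387, adjusted p = 7.68e-06, edgeR). PLAUR, the urokinase receptor, rose by 0.58 but did not pass without shNRP1#5 replicate 2 or shNT replicate 3. Both plasminogen activators fell, PLAT by 1.64 and PLAU by 0.74. The metalloproteinase inhibitors TIMP1, TIMP2 and TIMP3 fell by 0.85, 0.65 and 0.41, and the membrane-bound MMP14 by 0.58, but TIMP3 did not pass in 5 and MMP14 in 4 of the 6 fits that left out 1 passage.

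Interferon-stimulated genes had a median log2 fold change of -0.84. Of 25 tested, 15 fell and none rose, and the number stayed at 14 or 15 when any 1 passage was left out. After BST2, the largest falls were of MX2, a restriction factor of retroviruses (-1.88), OASL, a sensor-associated antiviral protein (-1.61), and ISG20, an RNA exonuclease (-1.59). MX2 was at 2.40, 2.29 and 1.53 CPM against 7.56, 6.62 and 8.66 CPM (standard error 0.212, adjusted p = 1.28e-05, edgeR). IFIT3, which binds viral RNA complexes, was at 54.7, 59.3 and 47.7 CPM against 137, 98.2 and 147 CPM and fell by 1.24. In both genes the lowest shNT passage was above the highest shNRP1#5 passage. The cytosolic RNA sensor IFIH1 fell by 1.24 and the signalling factors STAT2 and IRF9 by 0.90 and 1.05, whereas ISG15 (-0.26) and the sensor RIGI (-0.43) did not pass.

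Many of these genes share a promoter element. The interferon-stimulated response element was searched as GAAA, any 2 bases and GAAA on both strands, overlapping matches included, in RefSeq promoters (GRCh38.p14) of 250 bases before to 50 bases after the start. It was present in 8 of the 11 fallen interferon-stimulated genes with a promoter entry (72.7%) and in 13 of all 18 tested ones with an entry (72.2%), against 3.65% of all promoters. Over all genes tested it was in 2.77% of promoters, in 3.87% of the genes that fell and in 2.79% of those that rose. The promoters of BST2, IFIT3 and ISG20 are shown as examples of genes that fell, with the matches in capitals, and they lie at chr19:17405581-17405880 (minus strand), chr10:89327747-89328046 and chr15:88638766-88639065 (both plus strand).

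BST2 promoter: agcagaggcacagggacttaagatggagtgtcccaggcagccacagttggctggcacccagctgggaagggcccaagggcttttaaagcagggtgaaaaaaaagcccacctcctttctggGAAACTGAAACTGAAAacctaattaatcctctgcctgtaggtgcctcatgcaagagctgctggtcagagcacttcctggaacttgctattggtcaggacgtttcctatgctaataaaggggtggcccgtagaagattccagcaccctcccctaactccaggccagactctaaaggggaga
IFIT3 promoter: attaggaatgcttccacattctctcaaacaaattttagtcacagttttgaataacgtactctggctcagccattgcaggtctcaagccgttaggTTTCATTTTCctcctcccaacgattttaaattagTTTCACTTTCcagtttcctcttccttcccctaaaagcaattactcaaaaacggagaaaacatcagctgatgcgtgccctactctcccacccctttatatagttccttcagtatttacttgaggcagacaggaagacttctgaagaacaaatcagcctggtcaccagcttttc
ISG20 promoter: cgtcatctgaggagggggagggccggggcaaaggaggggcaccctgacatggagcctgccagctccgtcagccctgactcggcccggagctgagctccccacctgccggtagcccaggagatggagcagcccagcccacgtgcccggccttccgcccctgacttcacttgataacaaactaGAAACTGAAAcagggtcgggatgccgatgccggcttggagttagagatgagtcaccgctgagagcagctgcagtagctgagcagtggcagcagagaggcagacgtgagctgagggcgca

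The 2 matches in BST2 overlap in 4 bases, the 2 in IFIT3 are separate and lie on the other strand, and ISG20 has 1. The AP-1 element, searched as TGANTCA, was in 5.67% of the promoters of genes that rose, against 4.92% of all genes tested. A match is a sequence description, and no binding was measured.

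Of 15 genes of antigen presentation by MHC class I, 9 fell and 1 rose (median -0.47). HLA-B was at 313, 282 and 246 CPM against 907, 526 and 585 CPM and fell by 1.26 (standard error 0.269, adjusted p = 0.00362, edgeR). HLA-F fell by 1.98 and HLA-C by 1.00. HLA genes are highly similar and polymorphic, so the division of reads among them is uncertain. The immunoproteasome subunit PSMB9 fell by 0.83 and the peptide transporter subunit TAP1 by 0.58, while its partner TAP2 rose by 0.50. TAP1 did not pass in 3 and TAP2 in 2 of the 6 fits that left out 1 passage.

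Of 25 cytokines and chemokines under NF-κB control, 8 fell and 1 rose (median -0.59). CCL2, a monocyte attractant, fell by 2.03 and CCL5 by 1.46, both from levels of at most 2.50 CPM, and TNFAIP2 fell by 1.13. IL11 rose by 0.63 but did not pass without shNRP1#5 replicate 1, shNRP1#5 replicate 3, shNT replicate 2 or shNT replicate 3. IL6 (-0.94) and CXCL8 (-0.93) did not pass. The number that fell was 3 without shNRP1#5 replicate 2 or replicate 3 and 5 without shNT replicate 1.

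Of 25 genes of glycolysis and hypoxia, 15 fell and 1 rose, with a median of -0.53. CA9, a carbonic anhydrase induced in hypoxia, was at 0.411, 0.297 and 0.288 CPM against 5.76, 4.06 and 4.76 CPM and fell by 3.84 (standard error 0.586, adjusted p = 0.000409, edgeR). After ALDOC, ENO2 (a neuronal enolase) fell by 1.33, from 177, 177 and 193 CPM to 76.7, 67.7 and 71.9 CPM. The groups of both genes were far apart. The glucose transporters SLC2A1 and SLC2A3 fell by 0.71 and 0.97, and SLC2A3 did not pass in 4 of the 6 fits that left out 1 passage. ADM (adrenomedullin), also known as hypoxia-inducible, rose by 1.04 but did not pass without shNT replicate 3 (adjusted p = 0.0608, edgeR), and GAPDH (0.05), GPI (0.13) and HK2 (-0.04) did not pass. The number that fell was 9 without shNRP1#5 replicate 2, shNRP1#5 replicate 3, shNT replicate 2 or shNT replicate 3.

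In cholesterol synthesis, 7 of 23 genes fell and none rose (median -0.46). TM7SF2, a sterol reductase, was at 7.01, 3.73 and 4.43 CPM against 10.9, 15.8 and 14.1 CPM and fell by 1.42 (standard error 0.251, adjusted p = 0.000764, edgeR). The groups did not overlap. INSIG1, which holds the sterol sensor in the endoplasmic reticulum, fell by 1.37 but did not pass without shNT replicate 2 (adjusted p = 0.0622, edgeR) or shNRP1#5 replicate 2. The number that fell was 4 without shNRP1#5 replicate 2 or shNT replicate 2.

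Of 18 targets of NRF2, the factor that responds to oxidants, 7 rose and none fell, with a median of 0.39, and 6 or 7 rose when any 1 passage was left out. NQO1, a quinone reductase, was at 637, 478 and 573 CPM against 263, 322 and 271 CPM and rose by 0.98 (standard error 0.186, adjusted p = 0.00132, edgeR). OSGIN1 rose by 1.14 and FTL (ferritin light chain) by 0.91. HMOX1 (-0.17) and AKR1C2 (-0.75) did not pass, and the AKR1C genes are close copies whose reads may be shared. Of 18 targets of ATF4, which responds to amino acid shortage, 5 rose and 2 fell (median 0.32). SLC3A2, the partner chain of SLC7A11 in cystine import, rose by 0.90, and DDIT3 by 0.86. DDIT4, an inhibitor of mTOR signalling that is also hypoxia-inducible, fell by 1.90, from 318, 356 and 403 CPM to 123, 69.7 and 96.4 CPM. The number of ATF4 targets that rose was 3 without shNRP1#5 replicate 3.

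Ribosomal protein genes showed small and uniform shifts. All 28 had a log2 fold change above 0, 16 rose and none fell, with a median of 0.39. RPL15 was at 2101, 2128 and 2129 CPM against 1411, 1345 and 1282 CPM and rose by 0.66 (standard error 0.13, adjusted p = 0.00181, edgeR). The number that rose was 6 without shNRP1#5 replicate 2 or shNT replicate 3 and 7 without shNRP1#5 replicate 3 or shNT replicate 2. Ribosomal protein genes have many processed pseudogenes, with which reads can be shared. Over all genes, short transcripts were higher, with a median log2 fold change of 0.15 in the quartile of genes with the shortest canonical transcripts and of -0.09 in the quartile with the longest. By GC content the quartile medians ran from 0.10 for the lowest to -0.14 for the highest. With offsets for both properties, chosen after seeing the data, 14 ribosomal protein genes rose.

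Proliferation genes stayed close to the background. Of 20 genes of DNA replication 1 rose, CCNE1 (0.72), which did not pass in 5 of the 6 fits that left out 1 passage, and none fell (median 0.24). Of 20 genes of G2/M and mitosis 2 rose, with log2 fold changes of at most 0.50, and none fell (median 0.09), and 0 or 1 rose when 1 passage was omitted. The p53 targets were mixed, with MDM2 up by 0.74, CDKN1A (p21) down by 0.87 and a median of -0.21. They numbered 4 lower of 16, of which 1 was left when any single passage was omitted, and GDF15 (-2.27) was among those lost (adjusted p from 0.0614 to 0.145, edgeR).

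Other lists showed single strong members and little shift as a whole. Of 13 TGF-β targets, ID2 rose by 2.7 from at most 0.329 CPM, and ID3 rose with it, while the circadian repressor BHLHE40 fell by 1.63 and BMP4 by 1.12 (median 0.04). Among 17 feedback genes of the MAPK pathway only SPRY1 passed, which fell by 1.38, and 2 passed without shNRP1#5 replicate 1. Of 16 YAP and TEAD targets, CCN2 and FJX1 rose by 0.78 and 0.83 and 3 fell (median -0.07), of which none or 1 passed when a single passage was omitted. Of 20 Notch and Wnt genes, HEY1, a Notch target, rose by 1.79 from at most 0.258 CPM, and 4 fell, of which 1 was left without shNRP1#5 replicate 3 and 2 without shNRP1#5 replicate 2 or shNT replicate 2. Of 13 genes of the RNA interference machinery, AGO4 fell by 0.90 (adjusted p = 0.00162, edgeR) and AGO2, the slicing Argonaute, did not pass (-0.06).

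Apart from the SRF and contractile genes, the remaining lists had few calls. Of 16 SRF and contractile genes, 4 rose and 3 fell (median 0.10), numbers that dropped to 1 and 1 without shNT replicate 2 or replicate 3 and to 2 rising without any other passage. CNN1 rose by 2.13 and passed in all fits that left out 1 passage. ACTA2 fell by 1.21 but did not pass without shNT replicate 3. No heat shock chaperone passed among 13 (median 0.27) and no mitochondrially encoded gene among 13 (median -0.31), by edgeR. Of 24 nuclear genes of the respiratory chain, 2 rose (median 0.17), both of which were lost without any 1 passage other than shNT replicate 1. Of 16 chaperones of the endoplasmic reticulum, 3 fell (median -0.24), and 0 to 2 when 1 passage was omitted.

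Genes whose 3′ UTR matches the seed of the guide were examined because the hairpin and the siRNA share it. The sites below are from the matched genes that fell most with shNRP1#5, the windows are 24 bases on the transcript strand, and the capitals mark the match to guide bases 2 to 8. They lie in GRCh38 at chr15:40090510-40090533 (BMF, minus strand), chr17:75757780-75757803 (ITGB4, plus strand), chr10:113782337-113782360 (PLEKHS1, plus strand) and chr3:124968906-124968929 (HEG1, minus strand).

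BMF 3′ UTR: ccctgctgcgGCACTTAtggagag
ITGB4 3′ UTR: cctttgttctGCACTTAataaatg
PLEKHS1 3′ UTR: aataccttcaGCACTTAgaagaga
HEG1 3′ UTR: tagttacattGCACTTAtccatga

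BMF, a pro-apoptotic BCL2 family member, fell by 2.32, ITGB4 by 2.25, PLEKHS1 by 2.04, SMIM14 by 1.91, HEG1, an endothelial adhesion protein, by 1.86 and RIMKLA by 1.75. Of 1463 genes with at least 1 match, 15.3% fell, against 14.9% of 12458 without one, and the median log2 fold changes were -0.06 and -0.02. With 2 or more matches (178 genes), 17.98% fell and the median was -0.13. Fewer of the matched genes rose (5.4 against 8.81%). None of 2545 mature human miRNA entries of RefSeq carries the seed UAAGUGC of this guide.

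The transfected siRNA of the same sequence gave other shares for the same genes. With siNRP1#5, 44.4% of the matched genes fell, against 13.8% of the others, and the medians were -0.42 and 0.04. In SUM159PT with shNRP1#5 the shares were 7.79 and 2.88% and the medians -0.17 and -0.003. In HS578T with shNRP1#5 they were 1.55 and 0.751%, with medians of 0.16 and 0.03. For hairpins and siRNAs of another sequence in MDA-MB-231, 4.03 against 2.74% fell with shNRP1#3 (2.19% of all genes tested fell) and 22.8 against 16.3% with siNRP1#3 (14.3% of all fell, and 25.7% were called in either direction). Genes with a match have longer 3′ UTRs, and within quartiles of 3′ UTR length, from the shortest to the longest, 13.04, 18.2, 13.3 and 15.8% of matched and 13.6, 14.8, 15.3 and 16.4% of unmatched genes fell with shNRP1#5. The median log2 fold change was lower for the matched genes in all 4 quartiles. These shares are descriptions, without a test.

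**Figure D4:**
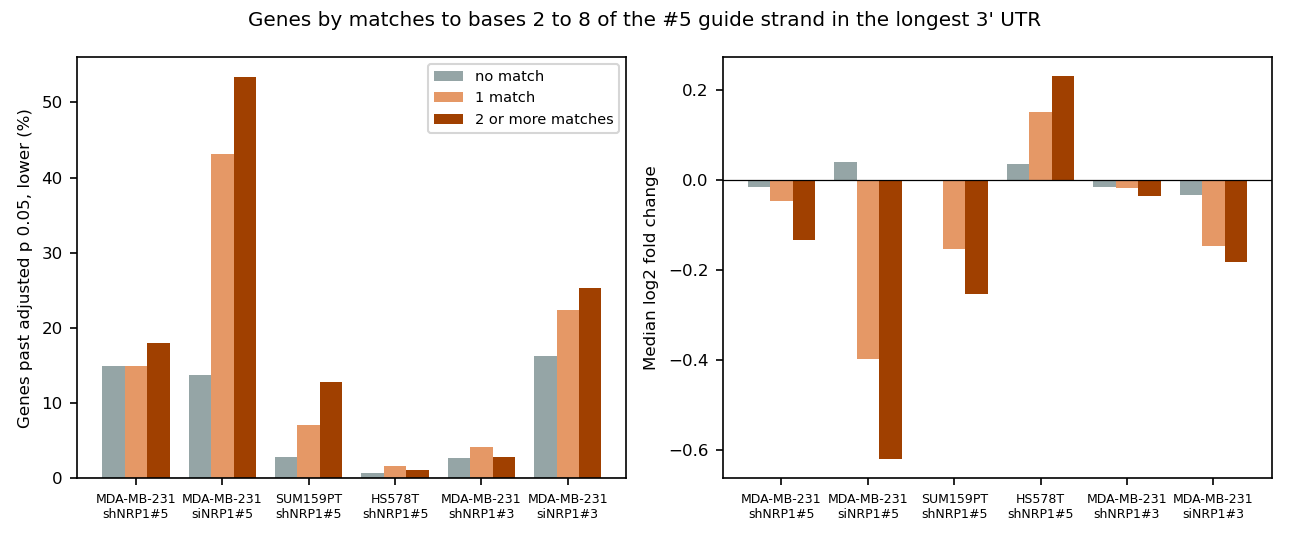
Percent of genes called lower (left) and median log2 fold change (right) by the number of matches to guide bases 2 to 8 in the longest annotated 3′ UTR, for 6 comparisons, each against its own NT control. With siNRP1#5 the share called lower rises from 13.8% without a match to 53.4% with 2 or more, and with shNRP1#5 in the same cells it goes from 14.9 to 17.98%.

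The other hairpin against NRP1, shNRP1#3, gave fewer calls in the same cells although total NRP1 RNA was at least as low. The authors designed shNRP1#3 against transmembrane NRP1 only, so total NRP1 does not compare the 2 knockdowns like for like. NRP1 was at 59.2, 63.1 and 70.4 CPM with shNRP1#3 on the scale of all 52 samples, below all 3 shNRP1#5 values, and the direct difference in log2 was 0.43 (adjusted p = 0.0565, edgeR). Against the shared shNT samples, shNRP1#3 had 686 calls (3.65%). Tested directly against each other, 2670 genes differed (14.2%), 1121 higher with shNRP1#5 (5.96%) and 1549 lower (8.24%). The count was 1394, 1526 and 1654 without shNRP1#3 replicate 1, 2 and 3, and 1205 and 1226 without shNRP1#5 replicate 2 and 3.

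MMP1 and UCA1 were among the genes that separated the hairpins. MMP1 had a log2 fold change of 2.95 with shNRP1#5 and -0.42 with shNRP1#3, a direct difference of 3.37 (standard error 0.211, adjusted p = 4.75e-08, edgeR), and UCA1 had 3.59 and 0.17, a difference of 3.42 (adjusted p = 0.00026, edgeR). DMBT1 differed by -2.59 and CFB by -2.91. LCN2 differed by -4.02 (adjusted p = 0.0425, edgeR), with the spread of its shNT passages as above. SERPINB2 had 5.87 and 4.23 for the 2 hairpins and differed by 1.64 in the direct test (adjusted p = 0.00102, edgeR). LCP1 had 2.35 and 2.87, and its difference did not pass (-0.52, adjusted p = 0.0744, edgeR). Of the 30 genes described first, SERPINB2, LCP1, HSD17B10, MAGEB2, IL24, ADAMTS6 and AOX1 were also called higher with shNRP1#3. CST1, COLEC12, PLAAT4, RCSD1 and BST2 were also called lower, and the others were not called. Both responses use the same shNT samples, so they are not independent. In the direct test 13 of 25 interferon-stimulated genes were lower with shNRP1#5 and 1 higher (median difference -0.65), as were 8 of 15 MHC class I genes (-0.68), 9 of 20 integrins and laminins (-0.52) and 10 of 25 NF-κB cytokines and chemokines (-1.08), the last with 1 higher.

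The responses to the hairpin and to the siRNA of the same sequence in MDA-MB-231 have separate controls. The siRNA changed 5518 genes (29.4%). Of the genes that rose with shNRP1#5, 384 (23.2%) also rose with siNRP1#5, against 14.4% of all genes tested. They made up 14.2% of the genes that rose with siNRP1#5, against the 8.79% of all genes that rose with shNRP1#5. Of those that fell with shNRP1#5, 516 (23.0%) also fell with siNRP1#5, against 14.9% of all genes. These were 18.4% of the genes that fell with siNRP1#5, against the 11.9% of all genes that fell with shNRP1#5. Opposite calls were made for 190 of the risers (11.5%), while 14.9% of all genes fell with siNRP1#5. They were made for 364 of the fallers (16.2%), while 14.4% of all genes rose with siNRP1#5. The difference between the responses itself was called for 4450 genes (23.7%), 2148 higher with the hairpin (11.4%) and 2302 lower (12.2%).

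Of the 30 genes described first, 13 were called in the same direction with the siRNA. They included SERPINB2, UCA1, MMP1, MAGEB2, ADAMTS6, IL24, HSD17B10 and LNCOG among the risers and LCN2, CFB, RCSD1 and DMBT1 among the fallers. COLEC12 and DEPP1 were called in opposite directions, with 1.90 and 1.43 after the siRNA. The glycolysis and hypoxia list also stood the other way, with 16 of 25 higher and none lower after siNRP1#5 (median 0.57), and the difference between the responses was called lower in 20 of 25 and higher in none (median -0.999). ALDOC differed by -4.05 (standard error 0.75, adjusted p = 0.00153, edgeR). Of the MHC class I genes 8 of 15 fell after the siRNA, and 18 of 28 ribosomal protein genes were higher after the siRNA, with no called difference between the responses by edgeR in that list.

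**Figure D5:**
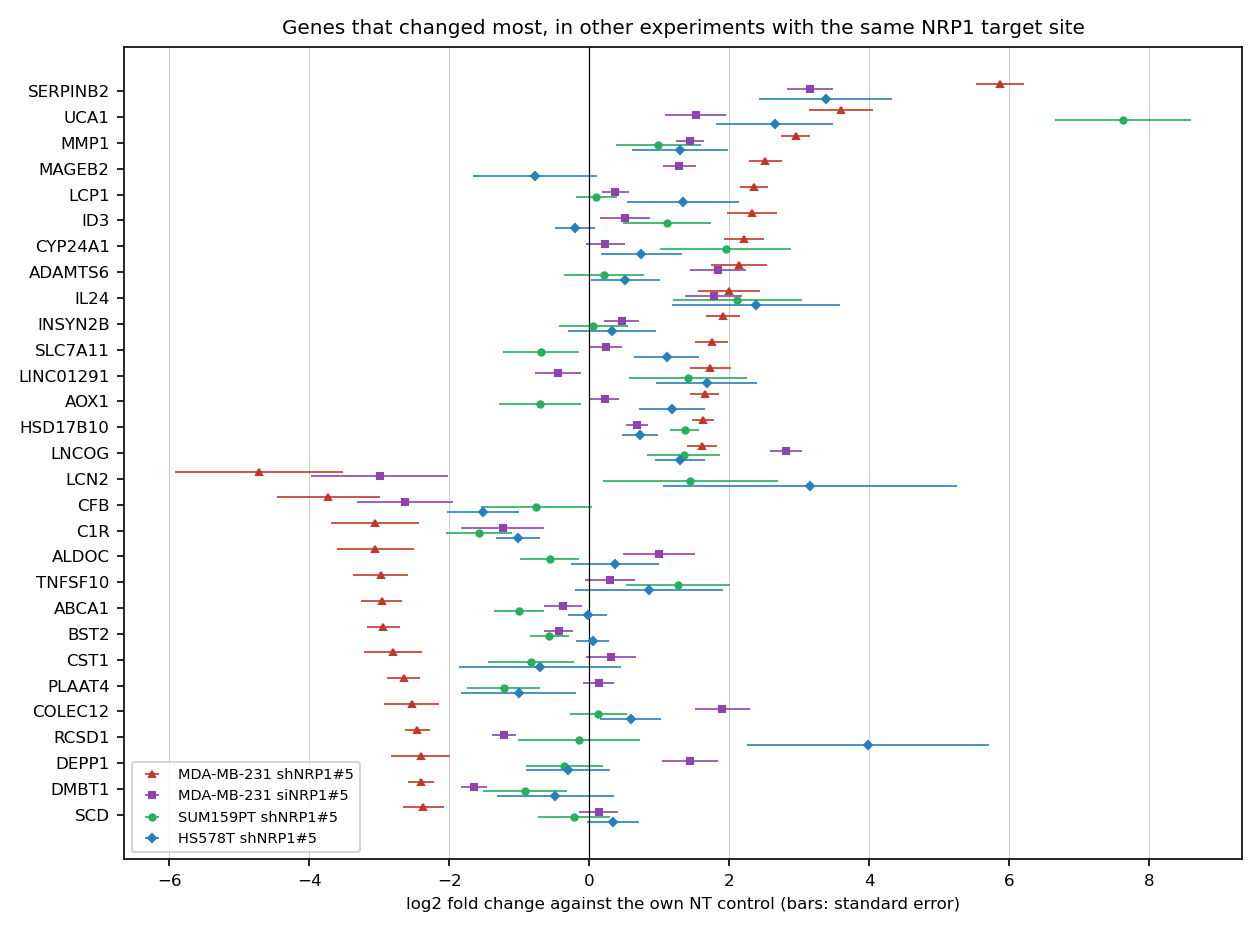
Log2 fold change of 29 of the 30 genes, with the standard error as bars, for shNRP1#5 in MDA-MB-231 (triangles), siNRP1#5 in MDA-MB-231 (squares) and shNRP1#5 in SUM159PT (circles) and HS578T (diamonds), each against its own NT control. HSD17B10, IL24 and 7 other genes lie to the right in all 4, although IL24 was called only in MDA-MB-231 and no gene shown was called in HS578T, and COLEC12 and DEPP1 lie on opposite sides in the experiments in MDA-MB-231.

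The same hairpin in SUM159PT lowered NRP1 from 269, 237 and 206 CPM to 50.7, 39.7 and 48.1 CPM, a larger fall than in MDA-MB-231 (difference of the log2 fold changes 1.28, adjusted p = 0.0303, edgeR). There 1192 of 20067 genes were called (5.94%), with 3.24% higher and 2.7% lower. HSD17B10 rose by 1.36 and UCA1 by 7.63 in SUM159PT, and no other of the 28 tested among the 30 genes was called. Of genes that fell in MDA-MB-231, 194 (9.16%) fell in SUM159PT too, where 2.67% of the shared genes tested fell. They made up 42.2% of the genes that fell in SUM159PT, and 2117 of the 17206 shared genes fell in MDA-MB-231. Of those that rose in MDA-MB-231, 59 (3.99%) rose in SUM159PT too, against 2.73% of the shared genes. These were 12.6% of the genes that rose in SUM159PT, and 1478 of the 17206 shared genes rose in MDA-MB-231. Opposite calls were made for 88 of the genes that fell in MDA-MB-231 (4.16%), while 2.73% of the shared genes rose in SUM159PT. They were made for 13 of the genes that rose in MDA-MB-231 (0.88%), while 2.67% of the shared genes fell in SUM159PT. Genes typical of MDA-MB-231 had a median of 0.1 to 1.05% of their MDA-MB-231 level in these SUM159PT libraries (42 genes), highest in shNRP1#5 replicate 2, and the part of this in the overlap was not tested.

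A difference between the responses of MDA-MB-231 and SUM159PT was called for 772 of 23416 genes (3.3%), 231 higher (0.987%) and 541 lower (2.31%) in MDA-MB-231. The count was 494 without MDA-MB-231 shNRP1#5 replicate 3, 514 without SUM159PT shNRP1#5 replicate 2 and 488 without SUM159PT shNT replicate 3. For 6 of 15 epithelial junction genes the difference was called lower in MDA-MB-231 and for none higher (median difference -2.06), and 3 of 14 rose and none fell in SUM159PT (median 0.72). Of the class 3 semaphorins, 3 of 7 were called lower (median difference -1.88). Of the interferon-stimulated genes, 5 of 25 fell and none rose in SUM159PT (median -0.67), and 1 difference was called in each direction. MHC class I genes fell in 5 of 15 cases there (median -0.71), with no called difference by edgeR.

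In HS578T, shNRP1#5 lowered NRP1 from 128, 122 and 162 CPM to 27.3, 32.4 and 37.7 CPM, and the difference of the log2 fold changes from MDA-MB-231 did not pass the test (1.02, adjusted p = 0.18, edgeR). Only 186 of 19661 genes were called (0.946%), with 0.275% higher and 0.671% lower, and none of the 30 genes was among them. Of the genes that fell in MDA-MB-231, 56 (2.64%) fell in HS578T, where 0.677% of the shared genes tested fell. They made up 48.7% of the genes that fell in HS578T, and 2119 of the 16986 shared genes fell in MDA-MB-231. Of those that rose in MDA-MB-231, 15 (0.995%) rose in HS578T, against 0.277% of the shared genes. Opposite calls were made for 4 of the genes that fell in MDA-MB-231 (0.189%), while 0.277% of the shared genes rose in HS578T. They were made for 2 of the genes that rose in MDA-MB-231 (0.133%), while 0.677% of the shared genes fell in HS578T. The difference between the responses was called for 153 genes (0.653%), 53 higher (0.226%) and 100 lower (0.427%) in MDA-MB-231. This count ranged from 31 to 269 when 1 sample was left out, and it fell by more than 1.5-fold without any single MDA-MB-231 passage (31 to 56) and without HS578T shNRP1#5 replicate 2 (53), shNT replicate 2 (35) or shNT replicate 3 (97), and rose without shNT replicate 1 (269). Interferon-stimulated genes fell in 3 of 25 cases and MHC class I genes in 2 of 15 cases in HS578T, and none rose in either list.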

How the data were processed

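RNA was isolated from 52 samples of 3 cell lines in 18 groups, and poly(A) stranded libraries were sequenced in pairs. Per the submitters' processing notes, the authors trimmed reads with Trim Galore 0.6.5, aligned them with STAR 2.7.2b to GRCh38 with Ensembl 114 and quantified them with RSEM 1.3.3. The deposited tables hold expected counts per gene, not normalised, and TPM per gene and transcript and the percent of gene TPM in each transcript (isoform percent), as the authors' RSEM wrote them. Expected counts were rounded to whole numbers here. All 78894 genes entered filterByExpr in edgeR 4.0.16 (R 4.3.3), and TMM scaling for the tests used the genes kept, 18800 for MDA-MB-231. A quasi-likelihood test was fitted to the 18 MDA-MB-231 samples with 6 group means. Differences between responses were contrasts, those across lines fitted to all 52 samples. P-values were adjusted by Benjamini-Hochberg over all genes tested, with a threshold of 0.05. CPM values are TMM-scaled, and log2 fold changes are those of the fitted model. A prior count of 2 was used only for log2 CPM, in the checks of replicate pairing, list spread and GC and length offsets. NRP1 transcript shares were compared by exact permutation tests. Total counts per sample ranged from 25310443 to 72003442. Replicates of the 6 samples differed by more than sampling noise.

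The genes described first were the 15 largest rises and falls among called genes with at least 5 mean CPM and no overlap between groups. Genes of lists were taken from 31 lists, with some members named after their values were seen. The comparison, its members and the lists were chosen with earlier results of these data known. Sites and exons came from GENCODE 44 on GRCh38, matched to 18045 tested genes, and 13921 had a 3′ UTR. Promoters came from RefSeq GRCh38.p14. The scripts were tested on simulated data. Other scalings, filters, DESeq2 1.42.0, other sample sets, a replicate block and leaving out samples were tried as alternatives. Some genes are not reported here.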

Additional observations from a re-analysis of the deposited data

Results flagged for a closer look

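For the 30 genes described first, the response to shNRP1#5 in MDA-MB-231 was tested against that in 3 other experiments by edgeR's interaction test, and the 5 largest differences of log2 fold changes that passed are given for each. Against the same hairpin in SUM159PT, LCN2 differed by -6.18 (adjusted p = 0.0457), TNFSF10 by -4.23 (adjusted p = 0.00149), UCA1 by -4.00 (adjusted p = 0.0264), COLEC12 by -2.64 (adjusted p = 0.0135) and SLC7A11 by 2.46 (adjusted p = 0.0335). UCA1 rose in both lines, by 3.59 and by 7.63. The log2 fold changes in SUM159PT of LCN2, TNFSF10, COLEC12 and SLC7A11 were 1.44, 1.27, 0.13 and -0.68, and none of these 4 was called there. In MDA-MB-231 itself LCN2 had a log2 fold change of -4.72, which was -2.49 and did not pass without shNT replicate 1 (adjusted p = 0.0858, edgeR).

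Against siNRP1#5 in MDA-MB-231, COLEC12 differed by -4.43 (adjusted p = 2.90e-05), ALDOC by -4.05 (adjusted p = 0.00153), DEPP1 by -3.84 (adjusted p = 0.000256), TNFSF10 by -3.28 (adjusted p = 0.000356) and CST1 by -3.11 (adjusted p = 0.00069), by edgeR. Their log2 fold changes with the siRNA were 1.90, 1.00, 1.43, 0.30 and 0.31. Against the same hairpin in HS578T, ALDOC differed by -3.40 (adjusted p = 0.0387), COLEC12 by -3.13 (adjusted p = 0.0155), BST2 by -3.01 (adjusted p = 1.12e-05), ABCA1 by -2.96 (adjusted p = 0.000384) and SCD by -2.72 (adjusted p = 0.0342), by edgeR. Their log2 fold changes in HS578T were 0.37, 0.59, 0.05, -0.02 and 0.34.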

How the results depend on the processing

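The 3899 genes called by edgeR became 6823 with only the 6 samples of both groups, 7098 with only the 9 shRNA samples, 6776 with the replicate block on those 9 samples and 2544 without the first passage of both groups, the last chosen after seeing the data. Leaving out 1 sample gave 2100 to 3189. Same-numbered samples did not deviate together (r of -0.315, -0.292 and 0.119), so the numbers were not taken as pairing samples, and the replicate block on all 18 samples gave 4167. DESeq2 gave 4414. NRP1 kept its direction and call throughout (-0.96 to -1.09 without 1 sample). The 2670 genes of the direct comparison of hairpins became 1205 to 1938 without 1 sample, and 2942 with the replicate block. The 4450 differing from the siRNA response became 3247 to 6059, and 4707 with the replicate block. The 772 differing from SUM159PT became 1236 without the filter, 1728 in only 12 samples, 785 with the replicate block and 488 to 1096 without 1 sample. The 153 differing from HS578T became 548 without the filter, 486 by DESeq2, 591 in only 12 samples, 187 with the replicate block and 31 to 269 without 1 sample. The NRP1-206 difference was -0.86 to 3.6 percentage points without 1 sample. The share of matched genes that fell, 15.3%, against 14.9% without a match, was 12.8 against 15.2% for guide bases 1 to 7 and 18.8 against 14.2% for the passenger strand. Of the list medians, 364 values under alternatives moved by less than the spread between replicates and 39, in 21 lists, by more. Of 120 genes chosen by the fixed rule, besides NRP1, 33 lost their call in at least 1 alternative and none reversed. Of 190 called list members and genes with a seed match, 80 lost their call when 1 sample was left out and none changed direction. The causes were not tested. The effect of depth was not tested.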
